A study of Mus musculus with 6 samples.

Results

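The 8 genes described here encode the core of the perineuronal net: the lecticans Acan, Bcan, Ncan and Vcan, the link proteins Hapln1 and Hapln4, and the tenascins Tnr and Tnc. They were chosen by name from the 54532 genes of a hippocampal RNA-seq table, and all 8 were found once each and were among the 20952 genes tested. The table holds 6 libraries, from 3 wild-type (WT) mice and 3 mice called transgenic (TG) that carry G82R and L85P in GLT-1, the astrocytic glutamate transporter encoded by Slc1a2. Both changes were placed in exon 3 of the mouse gene with CRISPR/Cas9, so the TG mice are knock-in animals, and wild-type littermates served as controls. The edit was made in C57BL/6N and the founders were mated with C57BL/6 animals. Because the edit is in the germ line, every cell type that uses the gene carries it, and it was not limited by a promoter or a Cre line. The zygosity and the age of the sequenced mice are not given in the sources used here.

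The perineuronal net is a lattice of matrix around the cell body and proximal dendrites of some neurons. Hyaluronan chains made at the cell surface bind the N-terminal domain of the lecticans, link proteins lock that bond, and tenascin-R joins the C-terminal ends of neighbouring lecticans. In the hippocampus nets are best known around parvalbumin interneurons and around CA2 pyramidal cells, and the same proteins also form the looser matrix between cells and at synapses and nodes.

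Transcripts of all 8 genes were present in every library, and 0 of the 8 passed the test of a difference between TG and WT mice. On average Bcan had the highest level and Tnc the lowest, a ratio of 125 between their mean FPKM. FPKM is the number of fragments per kilobase of gene after scaling to the size of the library, so it allows levels to be compared between genes of different length. The order of the mean levels was Bcan, Hapln4, Ncan, Tnr, Hapln1, Vcan, Acan and Tnc. The ranges over the 6 libraries were apart for each pair of neighbours in this order but Acan and Tnc, and Ncan and Tnr were barely apart, with a lowest Ncan of 20.3 FPKM and a highest Tnr of 20.01 FPKM. Bcan stood at the 96.7th percentile of the genes tested and Tnc at the 26.3rd percentile. In these bulk samples, fewer cells of a type and less RNA per cell cannot be told apart.

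**Figure D1:**
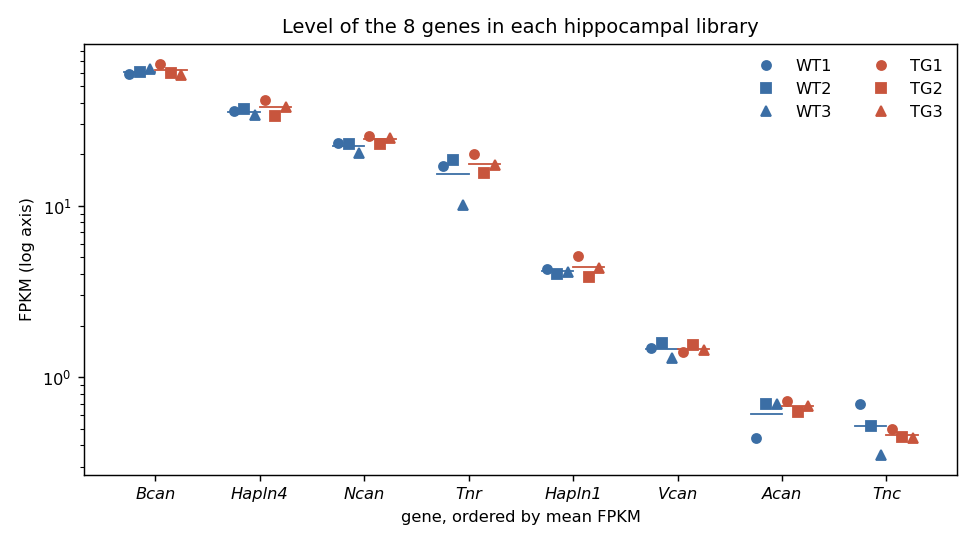
FPKM of the 8 genes (log axis) in each library, with WT in blue and TG in red and a horizontal line at each group's mean. Bcan lies near 61 FPKM and Acan and Tnc lie under 1 FPKM, and for every gene the WT and TG points overlap.

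The sequence just upstream of the start site is shown for 3 genes whose levels lie far apart, so that their composition can be read beside the FPKM values. Each is the 100 bases before the start site as RefSeq places it (GRCm38.p6), written 5′ to 3′ on the strand of the gene, with every CG dinucleotide in capitals.
Bcan, chr3:88000357-88000456, minus strand: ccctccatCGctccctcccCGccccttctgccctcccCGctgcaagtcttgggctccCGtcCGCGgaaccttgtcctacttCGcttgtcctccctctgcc
Hapln1, chr13:89540536-89540635, plus strand: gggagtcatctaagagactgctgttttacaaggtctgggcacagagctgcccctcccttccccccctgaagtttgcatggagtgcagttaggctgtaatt
Acan, chr7:79053126-79053225, plus strand: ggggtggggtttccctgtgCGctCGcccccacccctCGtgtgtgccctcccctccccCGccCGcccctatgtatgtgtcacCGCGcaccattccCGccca

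Bcan had 7 CG dinucleotides in this window, Acan 8 and Hapln1 0, against a median of 3 over 32851 promoters of the same length. RefSeq and GENCODE M21 place the start of each of these 3 genes differently. By GENCODE M21 Hapln1 starts at base 89539796, so the Hapln1 window lies inside the gene and not before it. By the same source Bcan starts at base 88000230 and Acan at base 79053483. Their windows lie before the gene but do not reach that start. The counts of these 3 genes therefore hold for the RefSeq starts only. CG content did not order the genes as their levels did, since Acan had the most CG of these 3 and the lowest level. Entries were matched for 7 of the 8 genes, and Hapln4 was not matched. Of the other genes, Ncan and Vcan had 4 CG each and Tnr had 2, and Tnc had 5 before one start site and 2 before the other.

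Brevican and neurocan made up nearly all of the lectican transcript. Bcan (ENSMUSG00000004892, chr3:87987531-88000230, minus strand, GRCm38) encodes brevican, the main lectican of the adult brain, and had 58.6, 60.4 and 62.7 FPKM in the WT libraries and 67.7, 59.6 and 58.2 FPKM in the TG libraries. The highest TG library lay above all WT libraries and the lowest lay below them, so the groups overlapped. Its mean was 60.6 ± 2.06 FPKM in WT and 61.8 ± 5.11 FPKM in TG mice (SD, n = 3). The difference between TG and WT was 0.03 on the log2(FPKM + 0.1) scale (95% interval -0.16 to 0.21, limma adjusted p = 0.943), which bounds the change between 10.4% lower and 15.8% higher, taken as a fold.

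Ncan (ENSMUSG00000002341, chr8:70093085-70120873, minus strand) encodes neurocan, a lectican of neurons and glia that is most abundant in the young brain. It had 23.4, 22.9 and 20.3 FPKM in the WT libraries and 25.6, 22.9 and 24.98 FPKM in the TG libraries. TG1 and TG3 lay above every WT library and TG2 lay among them. The mean was 22.2 ± 1.66 FPKM in WT and 24.5 ± 1.44 FPKM in TG mice (SD, n = 3), a difference of 0.14 on the log2 scale (95% interval -0.05 to 0.33, limma adjusted p = 0.789). Ncan had the smallest unadjusted limma p of the 8 genes, and it ranked 3292 among all genes tested by that p.

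Vcan and Acan were low in these libraries. Vcan (ENSMUSG00000021614, chr13:89655312-89742509, minus strand) encodes versican, which is found at nodes of Ranvier and in the developing brain. It had 1.47, 1.59 and 1.29 FPKM in WT and 1.40, 1.54 and 1.44 FPKM in TG libraries, with all TG values inside the WT range. The means were 1.45 ± 0.153 and 1.46 ± 0.0679 FPKM (SD, n = 3), and the log2 difference was 0.01 (95% interval -0.32 to 0.34, limma adjusted p = 0.988).

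Acan (ENSMUSG00000030607, chr7:79053483-79115099, plus strand) encodes aggrecan, the lectican most used to recognise nets. It had 0.442, 0.696 and 0.701 FPKM in WT and 0.728, 0.627 and 0.682 FPKM in TG libraries. WT1 was the low library, with 61 reads against 84 to 98 in the others, and the remaining 5 libraries lay close together. The log2 difference was 0.15 (95% interval -0.39 to 0.69, limma adjusted p = 0.878), so at this depth an aggrecan transcript 23.9% lower or 61.5% higher in TG mice lies inside the interval. Without WT1 the sign changed, to -0.04.

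The composition of the lectican pool was also compared, since a share is less affected by the scale of a library. Brevican transcript made up 71.4% ± 2.10 of the summed lectican FPKM in WT and 69.9% ± 1.42 in TG mice (SD, n = 3, exact permutation test, two-sided, p = 0.5). Neurocan transcript made up 26.2% ± 2.06 and 27.7% ± 1.34 (exact permutation p = 0.4). Versican was at 1.71% ± 0.176 and 1.66% ± 0.175 (exact permutation p = 0.7), and aggrecan at 0.721% ± 0.169 and 0.768% ± 0.0293 (exact permutation p = 1.0). The ranges of all 4 shares overlapped between the groups. Single libraries carried part of these differences: without WT3 that of Ncan went from 1.55 to 0.404 percentage points and that of Bcan from -1.55 to -0.353, and without WT1 that of Acan went from 0.0465 to -0.0509. That of Vcan, at -0.0519, was 0.0228 without WT2 and 0.0425 without TG1. With 3 mice against 3 the smallest two-sided p that this test can give is 0.1, over 20 labelings, and these p-values are not adjusted over the shares and ratios compared.

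Of the link proteins, which hold lecticans on hyaluronan, Hapln4 was the more abundant by far. Hapln4 (ENSMUSG00000007594, chr8:70083457-70090862, plus strand), known as a partner of brevican in nets, had 35.6, 36.9 and 33.9 FPKM in WT and 41.4, 33.3 and 37.9 FPKM in TG libraries. The highest and the lowest value were both from TG mice. The log2 difference was 0.08 (95% interval -0.14 to 0.29, limma adjusted p = 0.841).

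Hapln1 (ENSMUSG00000021613, chr13:89539796-89611652, plus strand), the link protein required for compact nets, had 4.28, 4.03 and 4.14 FPKM in WT and 5.08, 3.83 and 4.34 FPKM in TG libraries. Its WT libraries were the most alike of any of the 8 genes, with a coefficient of variation of 3.04%, against 14.2% over the TG libraries, and TG1 was the high one. The log2 difference was 0.08 (95% interval -0.20 to 0.35, limma adjusted p = 0.872). With TG1 left out the sign turned, to -0.02. The ratio of Hapln4 to Hapln1 was 8.56 ± 0.525 in WT and 8.53 ± 0.313 in TG mice (SD, n = 3, exact permutation p = 0.9). The ratio of the summed link proteins to the summed lecticans was 0.467 ± 0.0167 in WT and 0.474 ± 0.0307 in TG mice (exact permutation p = 0.6).

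Of the tenascins, Tnr stood in the middle of the order of levels and Tnc at its low end. Their highest over their lowest library was 1.99 for both, the widest ratio of the 8 genes. Tnr (ENSMUSG00000015829, chr1:159523769-159931729, plus strand) encodes tenascin-R, the crosslinker of lecticans, which oligodendrocytes and some interneurons make. It had 17.1, 18.6 and 10.1 FPKM in WT and 20.01, 15.6 and 17.3 FPKM in TG libraries. WT3 lay well below the other 5 libraries, with 2423 reads against 3602 to 4075, and the groups overlapped. The means were 15.3 ± 4.56 and 17.6 ± 2.22 FPKM (SD, n = 3), and the log2 difference was 0.25 (95% interval -0.28 to 0.78, limma adjusted p = 0.789). This was the largest fitted difference of the 8, and it rested on WT3, since without that library it was -0.02.

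Tnc (ENSMUSG00000028364, chr4:63959785-64047015, minus strand) encodes tenascin-C, which is high in development and after injury. It had 0.696, 0.518 and 0.350 FPKM in WT and 0.496, 0.445 and 0.442 FPKM in TG libraries. All TG values lay inside the WT range, and the read numbers ran from 51 to 100. The log2 difference was -0.11 (95% interval -0.75 to 0.53, limma adjusted p = 0.929), and without WT1 it was 0.09. The ratio of Tnr to Tnc was 29.7 ± 5.77 in WT and 38.2 ± 2.76 in TG mice (SD, n = 3, exact permutation p = 0.2), with WT2 at 35.95 above TG2 at 35.1.

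Read together, 7 of the 8 genes had a fitted difference above 0, and limma's test called 0 of the 8 at an adjusted p under 0.05, against 2 genes, or 0.00955%, of the whole table tested. At an unadjusted p under 0.05, 0 of the 8 passed against 5.91% of all genes tested, and the groups were apart for 0 of the 8 against 12.1% of all genes tested. The median log2 difference of the 8 genes was 0.08, and that of all genes tested was -0.0020. The test measured the spread between 3 libraries a group, and the intervals were narrowest for Bcan, Ncan and Hapln4 and widest for Tnc, Acan and Tnr.

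**Figure D2:**
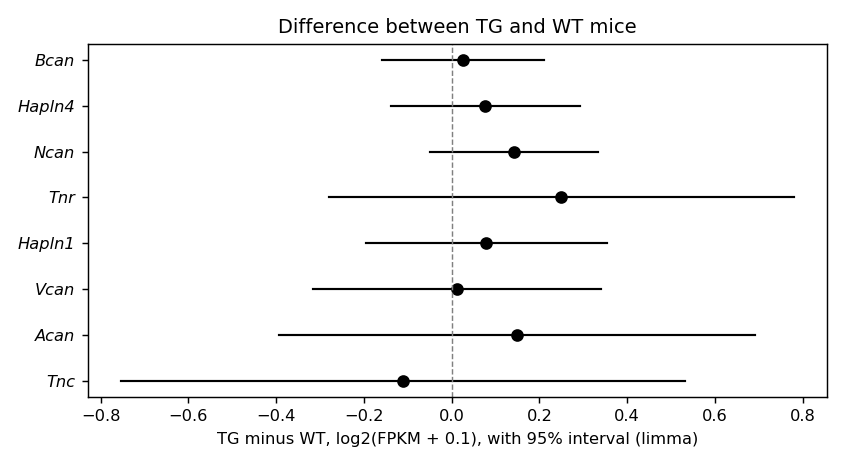
TG minus WT difference of each gene on the log2(FPKM + 0.1) scale (points) with its 95% interval from limma (lines), n = 3 libraries a group. Every interval includes 0, and that of Tnc is the widest, from -0.75 to 0.53.

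The spread among the libraries was not even. TG1 had the highest value of 6 of the 8 genes, all but Vcan and Tnc, and in TG1 7 of the 8 lay above their mean over the libraries. WT3 was the lowest library for Ncan, Tnr, Vcan and Tnc, and the median deviation of the 8 genes from their own means was -0.13 in WT3 and 0.16 in TG1 on the log2 scale.

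Gene length moved with this pattern. The 8 genes are long, from 3924 bases for Hapln4 to 14462 bases for Vcan as the table gives their lengths. Among the 8598 genes tested that were at least as long as Hapln4, the median deviation was -0.07 in WT3 and 0.04 in TG1, and among the 12354 shorter genes it was 0.08 in WT3 and -0.07 in TG1. Among the 648 genes at least as long as Tnr, it was -0.22 in WT3 and 0.10 in TG1. TG1 had the highest value for 27.9% of the genes at least as long as Hapln4 and for 19.1% of all genes tested. With a trend on gene length taken out of each library, a correction chosen after the data were seen, the deviation of Tnr in WT3 went from -0.67 to -0.49 and in TG1 from 0.31 to 0.23. Hapln1, Hapln4 and Bcan kept deviations of 0.22, 0.19 and 0.15 in TG1. The part of gene length in the group comparison was not tested further, and with the correction the median difference of the 8 genes was 0.06.

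**Figure D3:**
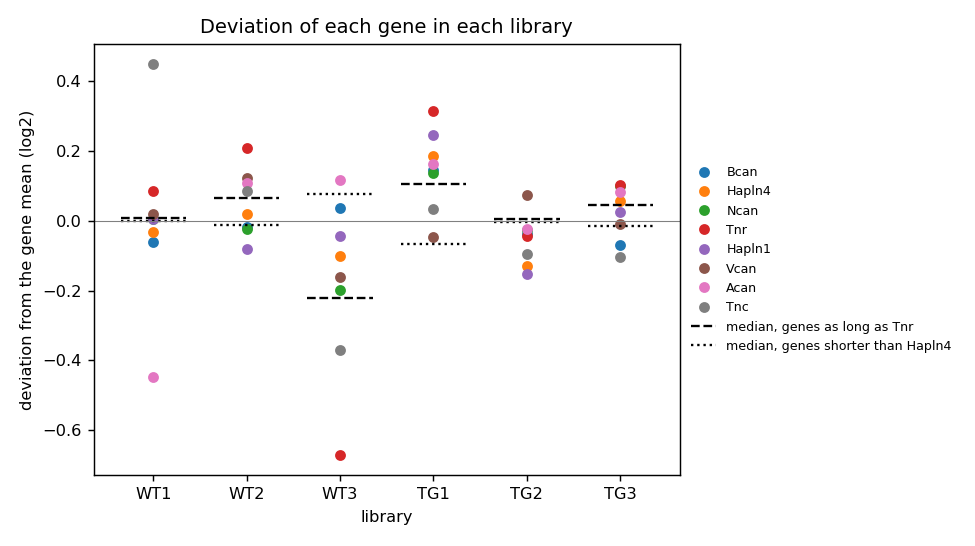
Deviation of each gene in each library from its mean over the 6 libraries (log2), with the median of the 648 genes at least as long as Tnr (dashed) and of the 12354 genes shorter than Hapln4 (dotted). TG1 is high for most of the 8 genes, Tnr is low in WT3 at -0.67, and the long genes as a class are also low in WT3 and high in TG1.

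Markers of the cells that carry nets were read beside these values. Of 14 genes listed as markers of parvalbumin interneurons, 0 passed at an unadjusted p under 0.05, and their median difference was 0.03. Their summed level was 431 to 502 FPKM in WT and 419 to 494 FPKM in TG libraries. Cplx1, a regulator of vesicle fusion and the most abundant, made up much of that sum, at 256 FPKM on average. Pvalb itself had 30.5 ± 9.15 FPKM in WT and 26.9 ± 3.43 FPKM in TG mice (SD, n = 3). Its log2 difference was -0.15 (limma adjusted p = 0.857), while 9 of the 14 had a fitted difference above 0. In TG1, 12 of the 14 lay above their own mean and in TG2 1 of the 14 did, as 7 and 1 of the 8 net genes did in those libraries. In WT3, however, 10 of the 14 interneuron markers lay above their mean and 2 of the 8 net genes did. Of 10 markers of CA2 pyramidal cells, led in level by Necab2, 0 passed. Their median difference was -0.13, and 7 of the 10 had a fitted difference below 0. Their sum was 132 to 153 FPKM in WT and 126 to 139 FPKM in TG libraries. The groups were apart, with lower TG values, for Amigo2 and Fgf5, 2 of the 10, against 12.1% of all genes tested in either direction.

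Glia, which make much of this matrix, were read in the same way. Astrocyte markers, led by Aldoc, summed to 657 to 733 FPKM in WT and 659 to 686 FPKM in TG libraries, with 0 of 13 at an unadjusted p under 0.05. All 12 mature oligodendrocyte markers, led by Mbp, had a fitted difference below 0, with a median of -0.30. The link protein gene Hapln2, read again below, is among these 12, with a difference of -0.05. The groups were apart for 3 of the 12, against 12.1% of all genes tested. Opalin and Mal, 2 of the 12, were lower at an unadjusted p under 0.05, a level that 5.91% of all genes tested reached. In TG1 0 of the 12 lay above their mean and their median deviation was -0.51. Oligodendrocyte precursors also make lecticans, and of their 12 markers, led in level by Olig1, Gpr17 was higher and Olig2 lower at that level. Only 2 of these 12 had a fitted difference above 0, and the median was -0.12. Their sum was 114 to 120 FPKM in WT and 106 to 109 FPKM in TG libraries, so every TG sum lay below every WT sum. The groups were apart for 2 of these 12, against 12.1% of all genes tested. Tnr had its highest level in TG1, as did 44.3% of the 648 genes tested that were at least as long as Tnr. The part of cell composition in the values of the 8 genes was not tested.

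Markers of the labelled tissue and of other regions were read as well. Hippocampal neuron markers, led by Nrgn, summed to 1509 to 1655 FPKM in WT and 1557 to 1706 FPKM in TG libraries. None of them was at 0. Markers of thalamus, striatum and cortex, led by Ppp1r1b, summed to 52.4 to 53.3 FPKM in WT and 58.7 to 61.3 FPKM in TG libraries. Every TG sum of these other regions lay above every WT sum. The lists hold different genes, so their sums do not measure the purity of the tissue. At an unadjusted p under 0.05, a level that 5.91% of all genes tested reached, 1 of the 12 hippocampal markers was lower. Of the 13 markers of other regions, 1 was higher at that level. Microglia markers, led by C1qa, summed to 193 to 219 FPKM in WT and 177 to 245 FPKM in TG libraries, with 2 of 10 higher, and meningeal fibroblast markers, led by Ptgds, summed to 212 to 623 and 298 to 505 FPKM, with 1 of 12 higher.

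Choroid plexus RNA stood out in 2 TG libraries. The 15 markers of that epithelium, whose most abundant transcript is Ttr, summed to 83.7 to 113 FPKM in WT and to 1347, 4215 and 93.5 FPKM in TG1, TG2 and TG3, and none of them was at 0. TG2, with the most of this RNA, was above the mean for 1 of the 8 net genes, and TG1 was above it for 7. With both libraries left out only TG3 remains against the 3 WT libraries, so the differences are values with no spread among TG mice. They were 0.23 for Tnr, 0.17 for Ncan, 0.16 for Acan, 0.10 for Hapln4, 0.07 for Hapln1, -0.0029 for Vcan, -0.06 for Bcan and -0.16 for Tnc, with a median of 0.08. Slc1a2 itself had 202.5, 199.5 and 177.3 FPKM in WT and 222.0, 207.1 and 217.3 FPKM in TG libraries. Every TG value lay above every WT value, and groups were apart in either direction for 12.1% of all genes tested. These values do not check the labels, since the edit changes codons and not the amount of RNA by design. By western blot, a measure of protein, the paper reported almost no GLT-1 in TG hippocampus. Total reads on genes ran from 16081281 to 18751057, and Ddx3y, a gene of the Y chromosome, lay between 10.6 and 12.3 FPKM in all 6 libraries.

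Each lectican gene lies beside a link protein gene in the mouse genome, and these pairs were compared in level. Ncan and Hapln4 are 2222 bases apart on chromosome 8, Bcan and Hapln2 21519 bases apart on chromosome 3, and Vcan and Hapln1 43659 bases apart on chromosome 13. Acan and Hapln3 lie on opposite strands of chromosome 7 with their 3′ ends 2 bases apart. In each pair no other coding gene lies between.

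The link protein had more transcript per length than its lectican neighbour in 2 pairs and less in the other 2. The ratio of mean FPKM was 2.94 for Hapln1 over Vcan and 1.56 for Hapln4 over Ncan, and 0.177 for Hapln2 over Bcan and 0.509 for Hapln3 over Acan. Hapln2, a link protein of nodes of Ranvier, had 11.0 ± 2.13 FPKM in WT and 10.6 ± 1.94 FPKM in TG mice (SD, n = 3, limma adjusted p = 0.953). Hapln3 had 0.381 ± 0.108 and 0.276 ± 0.0480 FPKM (limma adjusted p = 0.789). With Tnxb these made up the tested genes of the list of other link proteins and tenascins, 0 of 3 of which reached an unadjusted p under 0.05. Whether counting used the strand is not stated, so reads near the shared 3′ end of Acan and Hapln3 could be assigned to either gene.

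Reads of the 8 genes were otherwise little shared with other genes. The exons of Tnr overlap those of the antisense gene Gm38039, listed at 0 in all libraries, and the exons of Tnc overlap those of 8030451A03Rik on the other strand, at 0.0160 FPKM on average. Of all stretches of 50 bases in the exons, 2.71% of those of Tnr, 1.04% of those of Tnc, 0.644% of those of Ncan and 0.308% of those of Hapln1 occurred elsewhere in the transcripts annotated, and none of those of the other 4 genes did.

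The gene whose levels over the 6 libraries were most like those of Ncan was Pip5k1c, a phosphatidylinositol phosphate kinase gene. It had 76.6, 74.8 and 66.9 FPKM in WT and 84.0, 73.6 and 80.7 FPKM in TG libraries. After each gene was centred on its own mean, the root mean square gap to Ncan was 0.0120 on the log2 scale, among 13319 genes compared. A close match to a profile of 6 values is common, and 250 of these genes lay within 0.05 of Ncan.

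The rest of the net's machinery was read from 9 lists with 112 genes, of which 105 were tested. At an unadjusted p under 0.05, 7 of these had higher and 1 had lower TG values, which is 7.62% against 5.91% of all genes tested, and 0 passed at an adjusted p under 0.05, with a limma adjusted p of 0.786 for the smallest. The groups were apart for 14 of the 105, 13.3% against 12.1% of all genes tested. The median difference over the 105 genes was 0.05.

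**Figure D4:**
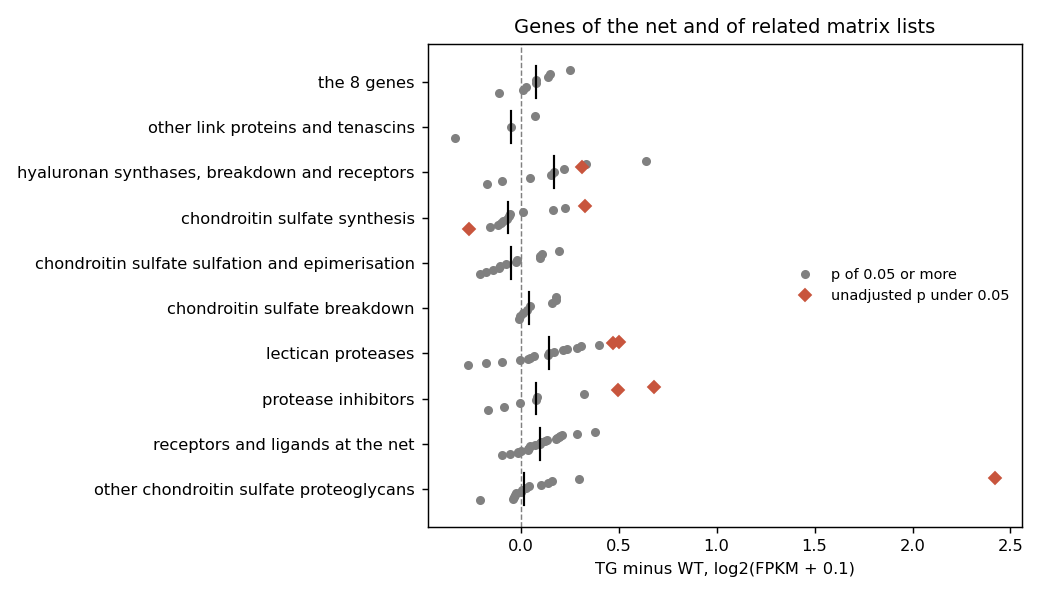
TG minus WT difference on the log2(FPKM + 0.1) scale for each tested gene of the net and of 9 related lists (points), with each list's median as a vertical line. Diamonds mark the 8 genes at an unadjusted p under 0.05, of which Cd74 is farthest out at 2.42, and none of the 8 net genes is among them.

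Among the enzymes that build chondroitin sulfate, the sugar chain that lecticans carry, 1 of 12 genes was higher and 1 lower at an unadjusted p under 0.05. Of all genes tested, 5.91% reached that level. The groups were apart for 2 of these 12, against 12.1% of all genes tested. Chsy1, a chondroitin synthase that extends the chain, had 3.64, 3.56 and 3.30 FPKM in WT and 4.66, 4.51 and 4.11 FPKM in TG libraries, and every TG value lay above every WT value. Csgalnact1, which starts the chain, had 3.33, 3.08 and 3.18 FPKM in WT and 2.58, 2.76 and 2.61 FPKM in TG libraries, with every TG value below every WT value. Their log2 differences were 0.33 (SE 0.0951) and -0.26 (SE 0.0962), each with a limma adjusted p of 0.786. The most abundant gene of the list was B3gat3, of the linkage region, at 99.5 ± 10.3 FPKM in WT and 95.4 ± 5.75 FPKM in TG mice (SD, n = 3).

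Sulfation and breakdown of the chain had 0 genes at an unadjusted p under 0.05, of 12 and 8 tested. For sulfation the smallest p belonged to Chst12, a chondroitin 4-sulfotransferase, at 9.04 ± 0.557 FPKM in WT and 7.99 ± 0.557 FPKM in TG mice (SD, n = 3, limma adjusted p = 0.788). Papss1, which makes the sulfate donor, was the most abundant, with a log2 difference of -0.11. For breakdown, Arsb, a lysosomal sulfatase, had 9.35 ± 1.10 and 10.6 ± 0.311 FPKM (limma adjusted p = 0.789), and Ids, the most abundant, had a log2 difference of 0.01.

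Of 17 proteases able to cut lecticans or their partners, 2 were higher at an unadjusted p under 0.05. That level was reached by 5.91% of all genes tested. Adamts1, a lectican-cleaving metalloprotease, had 4.35, 3.94 and 3.89 FPKM in WT and 6.14, 6.30 and 4.68 FPKM in TG libraries, a log2 difference of 0.47 (SE 0.131). Plau, the urokinase gene, had 0.818 ± 0.154 FPKM in WT and 1.199 ± 0.195 FPKM in TG mice (SD, n = 3), a log2 difference of 0.50. Both had a limma adjusted p of 0.786, and the groups did not overlap for either. In this list the groups were apart for 3 of the 17, against 12.1% of all genes tested. Ctss, a lysosomal protease of microglia and the most abundant of the list, had 47.7 ± 6.79 and 60.1 ± 18.9 FPKM. Adamts4 and Adamts5, the aggrecanases, had log2 differences of -0.09 and 0.31 with unadjusted limma p-values above 0.05, and were chosen for mention after their values were seen. Adamts5 was near the floor of measurement, at a mean of 0.149 FPKM and at most 36 reads a library. Its TG values all lay above its WT values.

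Of 8 protease inhibitors, Timp3 and Timp1 were higher at an unadjusted p under 0.05, a level that 5.91% of all genes tested reached. Timp3, a matrix-bound inhibitor of metalloproteases, had 8.67, 6.58 and 5.80 FPKM in WT and 10.5, 10.1 and 8.91 FPKM in TG libraries, with TG3 just above WT1. Its log2 difference was 0.50 (SE 0.150, limma adjusted p = 0.786). Timp1, which lies outside the rule for named genes and was added for completeness, was near the floor of measurement, at 0.384 ± 0.0940 FPKM in WT and 0.678 ± 0.156 FPKM in TG mice (SD, n = 3). Timp2, the most abundant, had a log2 difference of 0.08.

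Of 9 genes that make, cut or bind hyaluronan, Hyal2 was higher at an unadjusted p under 0.05, and it was also the most abundant. Of all genes tested, 5.91% reached that level. Hyal2, a hyaluronidase at the cell surface, had 3.40, 2.58 and 3.29 FPKM in WT and 3.82, 4.03 and 3.67 FPKM in TG libraries, a log2 difference of 0.31 (SE 0.128, limma adjusted p = 0.786). Among 22 receptors and ligands at the net 0 passed, and the smallest p belonged to Ptprf, a receptor phosphatase that binds chondroitin sulfate, at 6.998 ± 1.86 FPKM in WT and 8.96 ± 1.22 FPKM in TG mice (SD, n = 3, limma adjusted p = 0.789). Nptx1, a neuronal pentraxin and the most abundant, had a log2 difference of 0.07.

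Of 14 other proteoglycans with chondroitin sulfate, Cd74 was higher at an unadjusted p under 0.05, a level that 5.91% of all genes tested reached. Cd74, the invariant chain of MHC class II and only in part a proteoglycan, had 5.06, 2.99 and 1.59 FPKM in WT and 6.68, 33.6 and 18.1 FPKM in TG libraries, a log2 difference of 2.42 (SE 0.611, limma adjusted p = 0.786). Spock2, the most abundant of the list, had 165 ± 3.84 and 169 ± 17.3 FPKM.

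The 8 matrix genes at an unadjusted p under 0.05 were read again with the choroid plexus RNA of TG1 and TG2 in view, once with a choroid plexus score as a covariate and once with both libraries left out. The second setting compares TG3 alone with the 3 WT libraries, takes its spread from WT only and assumes that TG3 varies like them, so its differences are given as values. Cd74 went from 2.42 to 2.02 and to 2.60 on the log2 scale. Csgalnact1 went from -0.26 to -0.30 and to -0.28, and Plau from 0.50 to 0.68 and to 0.73. Adamts1 went from 0.47 to 0.22 and to 0.20, Timp1 from 0.68 to 0.40 and to 0.32, Timp3 from 0.50 to 0.35 and to 0.36, Chsy1 from 0.33 to 0.24 and to 0.23, and Hyal2 from 0.31 to 0.24 and to 0.25. With the covariate the unadjusted limma p stayed under 0.05 for Plau alone of the 8, at 0.0490, and the standard error of each was larger than without it. Plau had at most 60 reads in a library. Its unadjusted p was above 0.05 in some other settings and under it in others. It was 0.0580 with limma without the filter and 0.0539 with limma-voom on recovered reads. The part of choroid plexus RNA in these values was not tested further.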

How the data were processed

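Hippocampal RNA-seq of 3 WT and 3 TG mice was used. The labels name RNeasy and SMARTer kits, the methods Trizol and NEBNext. The authors counted reads with HTSeq 0.6.0 and deposited FPKM, from counts and gene length; the deposited gene lengths were used to recover reads. The labels name GRCm38 (mm10). The aligner and strand setting are not given in the sources used here. FPKM times length gave whole reads for 100% of values (tolerance 0.05). For a gene of 1 kb, 3 reads correspond to 0.160 to 0.190 FPKM, and such limits cover counting error only.

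The comparison used limma (version 3.58.1, under R 4.3.3). Values were taken as log2(FPKM + 0.1), genes whose mean FPKM was below 0.1 were dropped, and the fit had a trend, no covariate, and Benjamini-Hochberg adjustment over 20952 genes. On simulated counts with known changes, the fit recovered most changed genes with the right sign and made more false calls than its nominal rate. Recovery of differences as small as those fitted for the 8 net genes was not tested. The log2(FPKM + 0.1) scale makes fold changes of low genes look smaller than they are. Shares were compared by exact permutation tests. Separate animals are named only by the labels' numbers. The members, lists and tests were chosen with earlier results of these data known. From each matrix list the gene of smallest p, the most abundant gene, and every gene at an unadjusted p under 0.05 with a mean of at least 1 FPKM were named. The gene most like a member was sought for the member of smallest p. Coordinates are from GENCODE M21.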

Additional observations from a re-analysis of the deposited data

How the results depend on the processing

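In 18 alternative settings 0 of the 8 net genes reached an unadjusted limma p under 0.05, and the smallest was 0.0741 (Ncan); the smallest adjusted p was 0.636. Acan and Tnc could not be fitted where a mean of 1 FPKM was required. Hapln4 and Ncan had a difference above 0 in all settings, but that of Hapln4 was 0.0023 without TG1. With the choroid plexus covariate Bcan was -0.0040 and Vcan -0.034, without TG1 and TG2 they were -0.057 and -0.0029, and with the length correction, chosen after seeing the data, Vcan was -0.080. Leaving out 1 library at a time gave -0.040 to 0.068 for Bcan, -0.066 to 0.077 for Vcan, -0.038 to 0.24 for Acan, -0.32 to 0.087 for Tnc, -0.023 to 0.42 for Tnr, -0.024 to 0.18 for Hapln1, 0.0023 to 0.16 for Hapln4, 0.079 to 0.19 for Ncan, and 0.020 to 0.17 for the median of the 8 genes. The cause was not tested.

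Of all genes tested, 2 were called; 0 were called with a pseudocount of 1 or 0.01, without the filter, with limma-voom on recovered reads, with the choroid covariate, without TG1 and TG2, and with the length correction, 1 with a mean FPKM of at least 1, 9 without the trend, and 0 to 6 with 1 library left out, the 6 without TG1. The choroid covariate left 335 genes higher and 372 lower at an unadjusted p under 0.05, from 656 and 582. Of the other matrix genes, 2 reached that level with the covariate, and of these Plau alone was among the 8 of the main fit. With 1 library left out 5 to 9 reached it, the 5 without TG1, and these need not all be among the same 8. Same-numbered WT and TG libraries had correlations of 0.0125, 0.0434 and 0.00314 between their deviations, and differently numbered ones -0.0274 to 0.0159. Values this small in 3 libraries a group cannot decide whether the numbers pair the mice, for example by litter or batch. With the replicate number as a block, 0 genes were called, and the median of the 8 net genes was 0.08. Acan and Tnc rest on only 51 to 100 reads a library.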
